A study of Mus musculus with 4 samples.

Results

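Mamdc2, Hpse, Etl4, Baiap2l2, Gm42031 and Gm43305 were followed in microglia of mice with and without amyloid pathology. They are 6 of the 19737 genes counted, and 6 of the 14058 that passed the filter on low counts over all microglia. They were chosen by their symbols because their levels differed widely between AppSAA and WT mice in these same data, so every AppSAA against WT value below is the selected value and is given as a description, with no test. Mamdc2, Hpse, Etl4 and Baiap2l2 were high in AppSAA mice. Gm42031 and Gm43305 were low in AppSAA mice given the control antibody.

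The study asked how a TREM2-activating antibody changes microglia, in 5 groups with 4 mice each. The control antibody ATV:ISO and ATV:4D9 were each given to both genotypes, WT;TfRmu/hu and AppSAA;TfRmu/hu, and 4D9 to AppSAA;TfRmu/hu mice alone. All 20 mice were recorded as homozygous for the TfR knock-in, whose apical domain is human, so the WT animals carry that allele too. The AppSAA animals were recorded as homozygous also for APP-SAA, a knock-in of familial Alzheimer's disease mutations into App. 4D9 is an antibody to TREM2. ATV:4D9 carries in addition an Fc part that binds the human transferrin receptor and takes it across the blood-brain barrier, and ATV:ISO is the control antibody with that Fc part. The isotype arm is labelled ATV-DNP02 and was read as ATV:ISO. Brains were taken 1 day after a single dose of 10 mg per kg. The AppSAA line is listed as male and aged 8 months. The WT line is listed with both sexes and ages of 2 to 8 months, and which ages apply to these WT mice is not given in the sources used here. The recorded sex was male for 19 mice and female for 1 WT mouse given ATV:ISO.

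Live CD11b+ cells of cortex and hippocampus were tagged by mouse and captured in 4 pools. A pool held 1 mouse from each of the groups. Below, a mouse is named by its group and pool. The 74758 cells came from 2193 to 6126 cells per mouse, with 17150296 to 102446549 unique molecular identifiers (UMIs, counted molecules) per mouse. The mean over mice of the median UMIs per cell was 7566 in WT mice given ATV:ISO and 9338 in AppSAA mice given ATV:ISO, against 15338 and 15523 in the WT and AppSAA mice given ATV:4D9. Of the 8 microglial markers, all were above 1 CPM (UMIs per 1000000 UMIs) in every group, with a summed level of 12696 to 24814 CPM, and the defining markers of lymphocytes (0 to 0.892 CPM summed) and pericytes (0.0464 to 0.819 CPM) were near 0. Only 13 cells (0.0174%) had more UMIs from some other type's markers than from microglial ones. A barcode sequence occurred in more than 1 pool for 1089 cells, and these were kept as separate cells.

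Microglia near amyloid plaques take up a state in which homeostatic genes fall and genes of lipid handling, phagocytosis and the lysosome rise, and TREM2, a lipid-sensing receptor on these cells, is needed for its full form. The members that were high in AppSAA mice belong to unlike families. Hpse encodes heparanase, the enzyme that cuts the heparan sulfate chains of proteoglycans. Mamdc2 encodes a secreted protein built of MAM domains. Baiap2l2 encodes a protein with an I-BAR domain, which bends membranes and binds actin. Etl4, also known as sickle tail, encodes a large coiled-coil protein. Gm42031 and Gm43305 are annotated as long non-coding RNA genes without a described function.

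The members lie on 6 different chromosomes in GENCODE vM21 (GRCm38), none of them on chromosome 16, which holds both App and Tfrc. Mamdc2 spans chr19:23302609-23448442 on the minus strand, Hpse chr5:100679484-100719716 (minus), Etl4 chr2:19909780-20810713 (plus) and Baiap2l2 chr15:79258195-79285537 (minus). Gm42031 spans chr8:85125872-85132289 (minus) and Gm43305 chr14:54292443-54297456 (minus). RefSeq start windows of 300 bases (250 before the start site and 50 after it, GRCm38.p6) were found for 4 of the 6 genes. Those of Hpse and of the Etl4 start site with a motif match are shown here, as both genes were high in AppSAA mice and lower with ATV:4D9. No window was found for Mamdc2 and Baiap2l2, which shared that order. Capitals mark the only motif match, an E-box.
Hpse, chr5:100719667-100719966, minus strand: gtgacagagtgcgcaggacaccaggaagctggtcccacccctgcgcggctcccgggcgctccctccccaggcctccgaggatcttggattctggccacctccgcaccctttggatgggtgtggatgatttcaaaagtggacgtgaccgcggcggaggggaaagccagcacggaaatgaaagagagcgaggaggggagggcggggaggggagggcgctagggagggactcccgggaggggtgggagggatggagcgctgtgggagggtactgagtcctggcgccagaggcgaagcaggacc
Etl4, chr2:20509797-20510096, plus strand: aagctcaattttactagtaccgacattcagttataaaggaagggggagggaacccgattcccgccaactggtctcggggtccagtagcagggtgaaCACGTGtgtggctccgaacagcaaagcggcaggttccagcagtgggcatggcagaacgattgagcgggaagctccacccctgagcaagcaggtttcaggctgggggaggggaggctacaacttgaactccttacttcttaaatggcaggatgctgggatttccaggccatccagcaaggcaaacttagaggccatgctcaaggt

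Both strands were searched for PU.1 (GAGGAAG), AP-1 (TGANTCA), E-box (CACGTG) and interferon-stimulated response element letters. The Etl4 match starts at position -154 from the start site. No such letters were found in the Hpse window, the other 2 Etl4 windows or the windows of Gm42031 and Gm43305. Of all 32851 RefSeq windows, 13.6% held the PU.1 letters, 7.81% the AP-1 letters, 7.15% the E-box and 3.44% the interferon letters.

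Mamdc2 was measured at 0.466, 1.17, 1.38 and 1.41 CPM in the WT mice given ATV:ISO (pools 1 to 4) and at 0.224, 0.316, 1.26 and 0.718 CPM in those given ATV:4D9. AppSAA mice held 17.0, 28.5, 29.3 and 18.3 CPM under ATV:ISO, 19.8, 21.2, 33.95 and 29.0 CPM under 4D9, and 3.05, 7.67, 12.6 and 6.39 CPM under ATV:4D9. Every AppSAA mouse lay above every WT mouse, and the AppSAA mice given ATV:4D9 lay below all others of that genotype. The group means were 1.11 ± 0.441 CPM (SD, n = 4) in WT and 23.3 ± 6.52 CPM in AppSAA mice given ATV:ISO, a ratio of 21.0.

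Hpse showed the same order. Its level was 0.875, 0.83, 1.48 and 1.27 CPM in WT mice given ATV:ISO, and 0.602, 0.459, 1.26 and 0.731 CPM in those given ATV:4D9. It was 15.8, 22.8, 24.4 and 14.6 CPM in AppSAA mice given ATV:ISO, 16.4, 18.4, 22.1 and 18.04 CPM with 4D9, and 4.37, 12.3, 10.8 and 7.37 CPM with ATV:4D9. The WT and AppSAA mice did not overlap, and the lowest AppSAA mice were again those given ATV:4D9. The means under ATV:ISO were 1.11 ± 0.316 and 19.4 ± 4.92 CPM (SD, n = 4), a ratio of 17.4.

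Etl4 was the only member whose WT groups were told apart by the test below without the pool as a block. With that block Gm43305 passed as well. Its level was 1.05, 1.46, 2.1 and 1.62 CPM under ATV:ISO and 2.46, 2.93, 5.58 and 4.65 CPM under ATV:4D9 in WT mice. In AppSAA mice it was 15.9, 30.4, 27.5 and 29.0 CPM under ATV:ISO, 17.0, 19.97, 31.5 and 29.0 CPM under 4D9, and 6.64, 11.5, 15.3 and 14.6 CPM under ATV:4D9. The WT groups did not overlap, and the AppSAA mice given ATV:4D9 lay between the WT mice and the other AppSAA mice. The ratio of the AppSAA to the WT mean was 16.5 under ATV:ISO and 3.08 under ATV:4D9.

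Baiap2l2 varied least from mouse to mouse, relative to its mean, in AppSAA mice given ATV:ISO or 4D9. It was 2.86, 3.32, 5.58 and 4.1 CPM in WT mice given ATV:ISO and 2.55, 3.21, 5.6 and 4.63 CPM in those given ATV:4D9. AppSAA mice held 59.7, 65.0, 71.0 and 61.8 CPM with ATV:ISO, 63.5, 64.9, 82.4 and 72.8 CPM with 4D9, and 6.29, 17.3, 21.1 and 14.8 CPM with ATV:4D9. A wide gap thus separated the AppSAA mice given ATV:4D9 from the other AppSAA mice, and the lowest of them, from pool 1, lay just above the highest WT mouse. The ratio of means between genotypes was 16.2 under ATV:ISO and 3.72 under ATV:4D9.

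The 2 non-coding members ran the other way and spread far more. Gm42031 was at 11.7, 21.6, 10.7 and 19.2 CPM in WT mice given ATV:ISO and at 12.6, 34.8, 23.4 and 24.8 CPM in those given ATV:4D9. AppSAA mice held 0.833, 1.11, 1.88 and 4.25 CPM under ATV:ISO, 5.34, 2.34, 0.694 and 12.7 CPM under 4D9, and 16.1, 6.58, 0.92 and 34.7 CPM under ATV:4D9. The genotypes did not overlap under ATV:ISO, with a ratio of WT to AppSAA means of 7.82, and did overlap under ATV:4D9. Among the 12 AppSAA mice the highest value was 50.02 times the lowest, against 3.25 times among the 8 WT mice.

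Gm43305 followed the same mice. It was 33.99, 63.3, 44.2 and 53.7 CPM in WT mice given ATV:ISO and 78.0, 149, 118 and 83.7 CPM in those given ATV:4D9. AppSAA mice held 6.14, 5.46, 5.69 and 16.1 CPM under ATV:ISO, 19.5, 7.7, 3.87 and 34.9 CPM under 4D9, and 81.0, 19.0, 4.16 and 137 CPM under ATV:4D9. In each AppSAA group the mouse of pool 4 was the highest for both RNAs, and the ATV:4D9 mouse of pool 3 stayed among the lowest of all 20. The ratio of WT to AppSAA means was 5.84 under ATV:ISO and 1.78 under ATV:4D9.

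**Figure D1:**
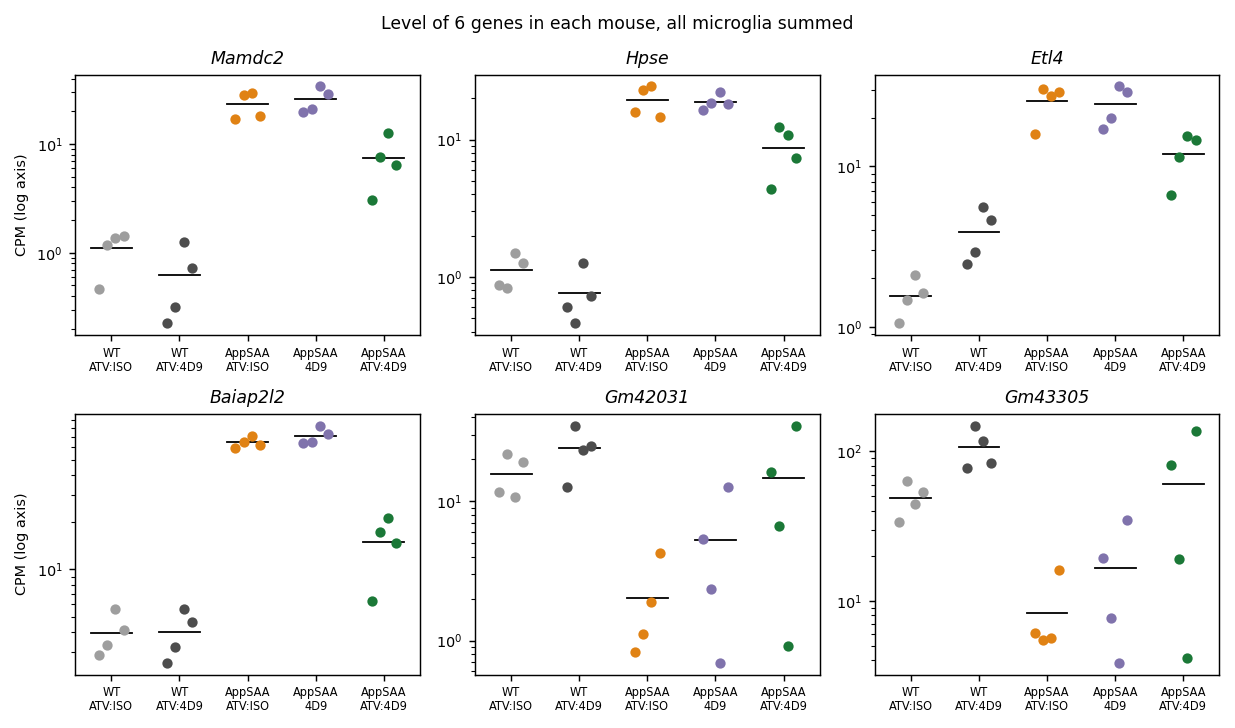
Level of each member in every mouse, in CPM on a log axis, by genotype and antibody (4 mice per group, in pool order from left to right, black line at the group mean). Mamdc2, Hpse, Etl4 and Baiap2l2 are high in AppSAA mice and lower with ATV:4D9. Gm42031 and Gm43305 are low in AppSAA mice given ATV:ISO and spread widely in those given ATV:4D9, from 0.92 to 34.7 and from 4.16 to 137 CPM.

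The effect of the antibodies was tested within each genotype with edgeR over all 14058 genes. ATV:4D9 against ATV:ISO in AppSAA mice lowered Baiap2l2 4.21-fold (log2 fold change -2.07 ± 0.24 SE, adjusted p = 3.67e-07), Mamdc2 3.07-fold (-1.62 ± 0.33, adjusted p = 0.000327), Hpse 2.16-fold (-1.11 ± 0.24, adjusted p = 0.000518) and Etl4 2.07-fold (-1.05 ± 0.24, adjusted p = 0.00108). Each of these 4 genes was lower in 4 of 4 pools, with no overlap between the groups in CPM. With each cell weighted equally (mean over cells of UMIs per 10000 UMIs), the groups overlapped for Mamdc2, Hpse and Etl4, and not for Baiap2l2. On that measure the Hpse means were 0.128 with ATV:ISO and 0.0837 with ATV:4D9. How many of all genes separated without overlap in CPM was not counted, here or below, so such separation is not read as particular to the members. All 6 members were called in this comparison, where 55.1% of all genes tested were called. The AppSAA mice given ATV:ISO also entered the choice of the members.

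Against 4D9, which does not use those mice as its reference, the same protein-coding members were lower under ATV:4D9. The 4D9 mice are of the AppSAA genotype and may have entered the choice of the members too. Baiap2l2 was 4.66-fold lower (log2 fold change -2.22 ± 0.24, adjusted p = 1.6e-07) and Mamdc2 3.44-fold lower (-1.78 ± 0.33, adjusted p = 0.000134). Hpse was 2.10-fold lower (-1.07 ± 0.24, adjusted p = 0.000791) and Etl4 1.96-fold lower (-0.97 ± 0.24, adjusted p = 0.00209). The groups did not overlap in CPM for any of these 4 genes. With each cell weighted equally, they overlapped for Hpse and Etl4, and not for Mamdc2 and Baiap2l2. In all, 5 members were called, against 54.3% of all genes. The calls of these 4 genes in both comparisons held under every alternative run.

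4D9 without the transport Fc was not distinguished from ATV:ISO. In AppSAA mice edgeR called 0 of the 6 members and 0% of all genes (79 of 14058 genes at an unadjusted p under 0.05, 0 called by limma-voom and 1 by DESeq2). That is fewer genes than a share of 0.05, which no effect at all would give. The fit was thus cautious here and did not use the pairing by pool, so small effects of 4D9 could be missed. The log2 differences were 0.15 ± 0.22 for Baiap2l2, 0.16 ± 0.31 for Mamdc2, -0.04 ± 0.23 for Hpse and -0.07 ± 0.24 for Etl4. For Gm42031 and Gm43305 they were 1.33 ± 0.79 and 0.98 ± 0.72, with wide errors.

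In WT mice Etl4 was 2.67-fold higher with ATV:4D9 than with ATV:ISO (log2 fold change 1.42 ± 0.33, adjusted p = 0.000885, edgeR), in 4 of 4 pools. It was the 1 member called, where 63.3% of all genes were called. Both levels were low, with Etl4 UMIs in 0.683% ± 0.115 and 1.54% ± 0.58 of cells thinned to 5000 UMIs (SD, n = 4), and the part of RNA free in the pools in this difference was not tested. The WT mice given ATV:ISO, the reference here, also entered the choice of the members. Baiap2l2 differed by 0.11 ± 0.28, Mamdc2 by -0.79 ± 0.55 and Hpse by -0.47 ± 0.39 (log2 fold changes). Gm43305 was higher in 4 of 4 pools without overlap (1.24 ± 0.69, adjusted p = 0.123), and passed the threshold with the pool as a block (1.36, adjusted p = 0.0425, edgeR).

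For the 2 long non-coding RNAs the tested rise in AppSAA mice rests on part of the mice. The AppSAA mice given ATV:ISO, in which both RNAs were low, entered the choice of the members. They are the reference here and in the tests against ATV:ISO within clusters below. ATV:4D9 against ATV:ISO gave a log2 fold change of 2.89 ± 0.78 for Gm42031 (adjusted p = 0.00365) and 2.93 ± 0.74 for Gm43305 (adjusted p = 0.00222) by edgeR. Leaving out 1 mouse moved these values to between 2.10 (without the ATV:4D9 mouse of pool 4) and 3.53 (without the ATV:ISO mouse of pool 4) for Gm42031, and to between 2.24 and 3.46 without the same mice for Gm43305. The groups overlapped, since the pool 3 mouse given ATV:4D9 lay below the pool 3 mouse given ATV:ISO for both RNAs. With limma-voom the call of Gm42031 was lost (2.40, adjusted p = 0.0565). Against 4D9, Gm42031 differed by 1.56 ± 0.73 (adjusted p = 0.0764; 0.024 with the pool as a block), and was called without the 4D9 mouse of pool 4 (2.53, adjusted p = 0.0153) or the ATV:4D9 mouse of pool 3 (1.94, adjusted p = 0.0146). Leaving out other mice took this value as low as 0.78, with an edgeR adjusted p of at most 0.383. Gm43305 was called against 4D9 (1.95 ± 0.71, adjusted p = 0.0253) but not with limma-voom (1.52, adjusted p = 0.121). The edgeR call of Gm43305 was also lost without the ATV:4D9 mouse of pool 4 (1.26, adjusted p = 0.137) or pool 1 (1.71, adjusted p = 0.0665), and without the 4D9 mouse of pool 2 (1.72, adjusted p = 0.0738) or pool 3 (1.61, adjusted p = 0.0745).

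The difference between the ATV:4D9 effect in AppSAA and in WT mice contains the genotype difference that chose the members, so it was not tested. On the log2 scale it was -2.46 ± 0.41 for Etl4, which was higher in WT and lower in AppSAA mice given ATV:4D9, and -2.19 ± 0.36 for Baiap2l2. It was -0.83 ± 0.63 for Mamdc2 and -0.64 ± 0.45 for Hpse, and 2.20 ± 1.03 for Gm42031 and 1.69 ± 0.98 for Gm43305.

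The deposited annotation divides the cells into 6 clusters (resolution 0.2), numbered 0 to 5 and not named. They were built from the expression of these same cells, so differences between clusters are a description. In AppSAA mice given ATV:ISO, cluster 1 held the highest summed level of 22 plaque-response genes (63398 to 72507 CPM, against 20696 to 40743 CPM in the others). It made up 38.3% ± 4.6 (SD, n = 4) of the cells of AppSAA mice given ATV:ISO, 39.4% ± 2.7 with 4D9 and 13.5% ± 3.1 with ATV:4D9. In WT mice it made up 1.41% ± 0.78 and 0.383% ± 0.065 with ATV:ISO and ATV:4D9.

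In AppSAA mice given ATV:ISO or 4D9, nearly all UMIs of the protein-coding members came from cluster 1. In AppSAA mice given ATV:ISO it supplied 96.9% ± 0.88 of the Mamdc2 UMIs, 93.2% ± 2.5 of Hpse, 90.5% ± 2.4 of Etl4 and 92.5% ± 2.0 of Baiap2l2, from 51.3% ± 4.6 of all UMIs. Gm42031 and Gm43305 showed no such concentration, with 35.0% ± 9.1 and 32.4% ± 4.9 of their UMIs there. Under ATV:4D9, when cluster 1 was smaller, it still supplied 82.5% ± 3.7 of Mamdc2, but 63.9% ± 6.8 of Hpse, 61.7% ± 10.8 of Baiap2l2 and 36.5% ± 10.1 of Etl4. In WT mice the mean shares ran from 15.4% (Etl4) to 37.0% (Mamdc2) with ATV:ISO and from 2.01% (Etl4) to 19.8% (Mamdc2) with ATV:4D9.

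**Figure D2:**
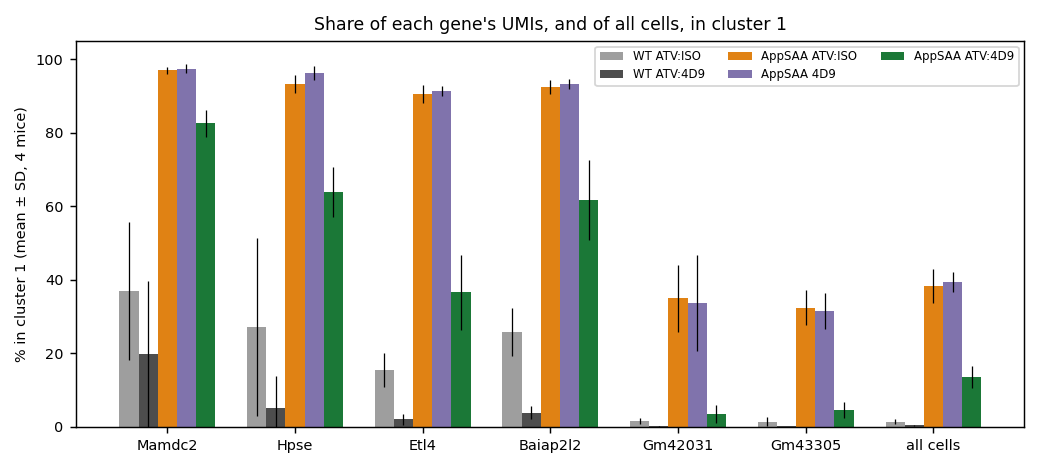
Percentage of each gene's UMIs found in cluster 1, and of all cells in cluster 1, by genotype and antibody (bars, mean over 4 mice; lines, SD, drawn down to 0 at most). In AppSAA mice given ATV:ISO or 4D9 the 4 protein-coding members have over 90% of their UMIs in cluster 1, against 38.3% and 39.4% of cells, while Gm42031 and Gm43305 do not exceed the share of cells.

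Within AppSAA mice given ATV:ISO the Mamdc2 level was 43.8 ± 10.9 CPM (SD, n = 4) in cluster 1, 8.47 ± 1.42 in cluster 5, 6.15 ± 2.57 in cluster 2 and 1.81 ± 1.92 in cluster 4. It stayed under 1 CPM in clusters 0 and 3 (0.74 ± 0.533 and 0.485 ± 0.440). Mamdc2 was therefore highest in cluster 1 by a margin above the spread between mice, and clusters 5 and 2 did not differ beyond theirs.

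Hpse was at 35.2 ± 7.99 CPM in cluster 1, 21.3 ± 9.01 in cluster 5, 14.7 ± 5.23 in cluster 4, 4.25 ± 0.722 in cluster 2, and under 1 CPM in clusters 0 and 3. Clusters 1 and 5 overlapped in their mice, and so did clusters 5 and 4. Etl4 was at 44.9 ± 9.25 CPM in cluster 1, 28.0 ± 9.59 in cluster 4, 22.2 ± 11.8 in cluster 2 and 16.4 ± 4.88 in cluster 5. These last 3 overlapped, and the lowest mouse in cluster 1 (31.0 CPM) lay within clusters 4 and 2. Etl4 was at 2.49 ± 1.10 CPM in cluster 3 and 1.68 ± 0.901 CPM in cluster 0. Baiap2l2 reached 116 ± 10.3 CPM in cluster 1, and 40.1 ± 8.81, 32.8 ± 12.9 and 32.6 ± 2.76 CPM in clusters 5, 4 and 2, which overlapped among themselves but not with cluster 1. It was at 5.88 ± 2.01 in cluster 3 and 5.06 ± 1.92 in cluster 0. All 4 genes thus had their highest mean in cluster 1 and their lowest in clusters 0 and 3.

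WT mice had few cells in cluster 1 (27 to 62 in the 3 mice given ATV:ISO with at least 20 cells there). In those 3 mice Baiap2l2 was at 37.4 ± 12.4 CPM, Mamdc2 at 16.8 ± 14.4, Hpse at 9.10 ± 8.17 and Etl4 at 7.98 ± 5.07 CPM (SD, n = 3). These levels rest on as few as 0 UMIs (Hpse) to 26 UMIs (Baiap2l2) per mouse. Each mean was above the WT level over all microglia, and for all 4 genes each of the 3 mice was below every AppSAA mouse given ATV:ISO in that cluster.

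Each cluster's share of all UMIs and the level within clusters were set apart by exchanging these shares between groups, using UMIs summed over the 4 mice. A share of UMIs depends on the number of cells in a cluster and on their depth. With WT cluster levels and the AppSAA cluster shares under ATV:ISO, Baiap2l2 would stand at 22.7 CPM, between the observed 4.00 in WT and 65.2 in AppSAA mice. The same exchange gave 10.4 CPM for Mamdc2 (observed 1.16 and 23.8), 6.90 for Hpse (1.13 and 19.7) and 6.24 for Etl4 (1.58 and 26.6). For Gm42031 and Gm43305 it gave 14.5 and 47.5 CPM, near the WT values of 16.3 and 49.9 CPM. With AppSAA levels at WT shares, Baiap2l2 would stand at 9.81 CPM, Mamdc2 at 2.05, Hpse at 2.16 and Etl4 at 4.18, and Gm42031 and Gm43305 at 2.80 and 11.1 CPM. The shares alone thus moved Baiap2l2 from 4.00 to 22.7 CPM with WT levels and from 65.2 to 9.81 CPM with AppSAA levels, so the part set by the shares depends on the direction of the exchange. These figures have no error and rest on 138 WT cells in cluster 1.

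**Figure D3:**
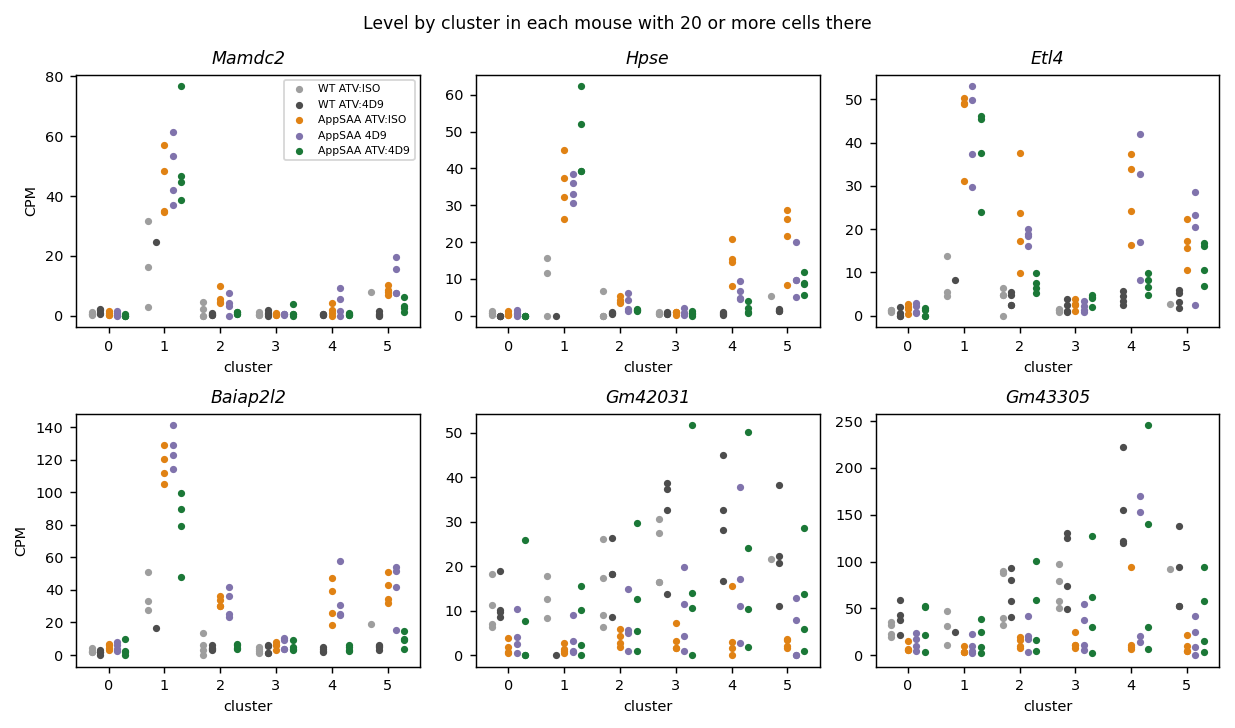
Level of each member in clusters 0 to 5, in CPM on a linear axis, with 1 point per mouse that had at least 20 cells in the cluster, coloured by genotype and antibody. Mamdc2, Hpse, Etl4 and Baiap2l2 peak in cluster 1 in AppSAA mice, at means of 43.8, 35.2, 44.9 and 116 CPM under ATV:ISO, and are low in clusters 0 and 3. Gm42031 and Gm43305 do not peak in cluster 1.

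The share of cells with at least 1 UMI showed the same picture after each cell was thinned to 5000 UMIs, which left out 4309 shallower cells. In cluster 1 of AppSAA mice given ATV:ISO, 36.9% ± 3.1 of cells (SD, n = 4) held Baiap2l2, 17.9% ± 2.7 Etl4, 13.8% ± 2.7 Mamdc2 and 11.8% ± 2.7 Hpse. In cluster 0 of the same mice the shares were 2.64% ± 0.86, 0.706% ± 0.438, 0.421% ± 0.229 and 0.268% ± 0.262. Before thinning they were 62.1%, 39.3%, 24.3% and 24.5% in cluster 1, and 3.56%, 1.23%, 0.562% and 0.466% in cluster 0, at a median depth of 14400 UMIs per cell in cluster 1 and 7093 in cluster 0 (mean over mice). WT mice given ATV:ISO, captured in the same pools, held thinned shares over all cells of 1.62% ± 0.62 for Baiap2l2, 0.683% ± 0.115 for Etl4, 0.38% ± 0.211 for Mamdc2 and 0.374% ± 0.201 for Hpse. In cluster 0 of these WT mice the shares were 1.36% ± 0.61, 0.691% ± 0.099, 0.329% ± 0.298 and 0.295% ± 0.247 in the same order. In cluster 0 the Baiap2l2 CPM was higher in AppSAA than in WT mice in 4 of 4 pools, with overlap. The part of free RNA in that difference was not tested. Shares this low were not read as expression, since free RNA can reach all cells of a pool, and the same limit holds for the WT levels of these 4 genes.

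Thinned shares over all cells of AppSAA mice under ATV:ISO, 4D9 and ATV:4D9 were 16.8%, 19.2% and 5.52% for Baiap2l2, and 5.84%, 6.34% and 2.46% for Mamdc2. They were 8.07%, 7.95% and 5.31% for Etl4 and 5.19%, 4.93% and 3.29% for Hpse. Each gene had its lowest share with ATV:4D9, where cells were deepest before thinning. For Gm43305 the share was 17.4% in WT and 3.81% in AppSAA mice under ATV:ISO, and for Gm42031 6.57% and 0.889%.

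Within cluster 1, ATV:4D9 left the protein-coding members closer to their ATV:ISO levels than over all microglia. In AppSAA mice Mamdc2 was at 35.1, 48.4, 57.1 and 34.6 CPM with ATV:ISO and at 38.6, 46.8, 76.8 and 44.8 CPM with ATV:4D9. Hpse was at 32.2, 37.4, 45.0 and 26.2 CPM and 39.2, 62.4, 51.9 and 39.4 CPM, higher with ATV:4D9 in 4 of 4 pools. Baiap2l2 was at 120, 104.9, 129 and 112 CPM and 47.7, 89.5, 99.3 and 79.0 CPM, lower in 4 of 4 pools without overlap.

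With all mice and the filter on low counts, none of the 6 members was called in cluster 1 by edgeR without the block or by DESeq2, where edgeR called 1.51% of all genes tested. By edgeR 4 members were at an unadjusted p under 0.05. The share of all genes under that unadjusted limit is not given here, so these 4 are not read against a background. Without the filter edgeR called Baiap2l2 (-0.53, adjusted p = 0.0428). The log2 fold changes were 0.28 ± 0.21 for Mamdc2, 0.50 ± 0.17 for Hpse (adjusted p = 0.204), -0.17 ± 0.18 for Etl4 and -0.51 ± 0.14 for Baiap2l2 (adjusted p = 0.0924). With the pool as a block, where 947 of 12182 genes were called, 4 members were called, Hpse (0.52, adjusted p = 0.00156), Baiap2l2 (-0.51, adjusted p = 0.0045), Gm42031 (2.14, adjusted p = 0.0059) and Gm43305 (1.69, adjusted p = 0.0016, edgeR). Against 4D9 in the same cluster Baiap2l2 was called (-0.64 ± 0.15, adjusted p = 0.0242, edgeR), with 1.76% of genes called, and with the block, where 820 genes were called, Hpse as well (0.52, adjusted p = 0.00178). That call of Baiap2l2 was lost without the 4D9 mouse of pool 2 or 3 or the ATV:4D9 mouse of pool 4 (adjusted p = 0.0638, 0.0834 and 0.0803). Without the ATV:4D9 mouse of pool 3, Baiap2l2 was called against ATV:ISO (-0.64, adjusted p = 0.0327). On leaving out each mouse in turn, this value ran from -0.64 to -0.36.

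Clusters 2 and 4 held 447 and 186 cells of the AppSAA mice given ATV:ISO and 5883 and 3807 cells of those given ATV:4D9. Several protein-coding members were lower there with ATV:4D9, and so was the summed level of the 22 plaque-response genes, whose median over mice went from 36246 to 26015 CPM in cluster 2 and from 39197 to 22254 CPM in cluster 4 without overlap, and from 37811 to 31525 CPM in cluster 5 with overlap. The part of this shift in the falls of the members was not tested. In cluster 2 Baiap2l2 went from 36.0, 30.4, 33.8 and 30.3 CPM with ATV:ISO to 3.98, 4.11, 6.47 and 6.87 CPM with ATV:4D9, a 5.89-fold fall (log2 fold change -2.56 ± 0.24, adjusted p = 1.23e-07). Etl4 went from 9.89, 17.4, 23.8 and 37.7 CPM to 5.24, 6.32, 7.65 and 9.85 CPM (-1.64 ± 0.29, adjusted p = 0.000334, edgeR). These 2 were called of the 4 members tested there, with 13.2% of genes called. Against 4D9 the same 2 were called (-2.50 ± 0.26, adjusted p = 1.1e-06, and -1.29 ± 0.33, adjusted p = 0.00963, edgeR), with 13.4% of genes called. Mamdc2 and Hpse had too few UMIs for the filter in cluster 2, and the fit without a filter gave -2.61 (adjusted p = 5.17e-06) and -1.38 (adjusted p = 0.0169, edgeR). These values rest on 39 Mamdc2 and 29 Hpse UMIs over the 4 ATV:ISO mice. The share of all genes called without a filter is not given here, so these 2 calls were not relied on.

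In cluster 4, 3 members fell, with 24.5% of genes called. Hpse went from 7.98, 20.7, 15.4 and 14.7 CPM to 0.73, 0.976, 3.93 and 2.12 CPM (8.56-fold, log2 fold change -3.10 ± 0.45, adjusted p = 2e-05). Baiap2l2 fell 8.27-fold (-3.05 ± 0.34, adjusted p = 7.37e-07) and Etl4 3.88-fold (-1.96 ± 0.33, adjusted p = 0.000111, edgeR). Mamdc2 had -1.99 ± 0.87 (adjusted p = 0.0996 by edgeR and 0.0349 by DESeq2), and -0.55 without the ATV:ISO mouse of pool 3 (adjusted p = 0.848). It did not pass the filter on low counts when any ATV:4D9 mouse was left out. The ATV:ISO sums of cluster 4 came from 27 to 74 cells per mouse, those of ATV:4D9 from 445 to 1438. Against 4D9 in cluster 4, 4 members were lower, with 22.1% of genes called. Hpse was 3.75-fold lower (-1.91 ± 0.58, adjusted p = 0.0196), a smaller fold than against ATV:ISO, and 4D9 itself stood at -1.19 ± 0.55 to ATV:ISO, lower in 4 of 4 pools (adjusted p = 1.00, edgeR). That call of Hpse was lost without the 4D9 mouse of pool 3 or 4 (adjusted p = 0.114 and 0.0593). Mamdc2 was at -3.03 ± 0.73 (adjusted p = 0.00375), lost without the 4D9 mouse of pool 2 (-2.32, adjusted p = 0.0983), Baiap2l2 at -3.16 ± 0.34 (adjusted p = 5.39e-07) and Etl4 at -1.86 ± 0.34 (adjusted p = 0.000323, edgeR).

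In cluster 5, with 29.7% of genes called, Baiap2l2 fell 4.29-fold (log2 fold change -2.10 ± 0.26, adjusted p = 3.35e-06), Hpse 2.56-fold (-1.36 ± 0.23, adjusted p = 0.000111) and Mamdc2 2.38-fold (-1.25 ± 0.41, adjusted p = 0.0223, edgeR). The call of Mamdc2 was lost without the ATV:ISO mouse of pool 2 or 3 (adjusted p = 0.0743 and 0.0793). The groups overlapped for Hpse. Etl4 had -0.37 ± 0.29 there. Gm43305 was called (2.23 ± 0.79, adjusted p = 0.0346), but not with the block (1.83, adjusted p = 0.0639) nor by DESeq2 (adjusted p = 0.0791), nor without any of 5 mice in turn, the ATV:4D9 mice of pools 1 and 4 (adjusted p = 0.0806 and 0.111) and the ATV:ISO mice of pools 1, 2 and 3 (0.0582, 0.0697 and 0.184). Against 4D9 in cluster 5, with 16.3% of genes called, Baiap2l2 (-2.14 ± 0.32, adjusted p = 5.28e-05) and Mamdc2 (-2.04 ± 0.46, adjusted p = 0.00326, edgeR) were lower, the latter not called without the 4D9 mouse of pool 4 (adjusted p = 0.0723). Hpse was not called there (-0.36 ± 0.35, adjusted p = 0.517, higher in 2 pools and lower in 2), and 4D9 stood at -0.99 ± 0.35 to ATV:ISO for Hpse, lower in 4 of 4 pools (adjusted p = 1.00, edgeR). Gm43305 had 1.36 ± 0.86 against 4D9 (adjusted p = 0.299) and Gm42031 1.43 ± 1.08 (adjusted p = 0.388), and both were called without the filter on low counts (adjusted p = 3.75e-09 and 0.00086, edgeR). The groups overlapped for both RNAs, so these calls without the filter were not relied on. Gm43305 ran from 3.65 to 93.6 CPM with ATV:4D9 and from 0 to 41.3 CPM with 4D9.

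In the 2 clusters with the lowest levels of the protein-coding members no such fall was called. In cluster 0 edgeR called 0 members (2 at an unadjusted p under 0.05, and 1 called by DESeq2) and 0.667% of genes. The share of all genes under that unadjusted limit is not given here, so these 2 are not read against a background. Cluster 3 had Gm42031 (2.90 ± 0.67, adjusted p = 0.011) and Gm43305 (2.31 ± 0.58, adjusted p = 0.019, edgeR) among 4.33% of genes. Without the ATV:4D9 mouse of pool 4 both calls in cluster 3 were lost (1.40 and 1.24, adjusted p = 0.57 and 0.465), and that of Gm43305 also without the ATV:ISO mouse of pool 2 or 3 (adjusted p = 0.051 and 0.0631) and by DESeq2 (2.18, adjusted p = 0.0694). Against 4D9 in cluster 3, with 3.52% of genes called, neither RNA was called (1.61 ± 0.63, adjusted p = 0.193, and 1.39 ± 0.57, adjusted p = 0.221), while both passed with the block (adjusted p = 0.0217 and 0.0462), and Gm42031 without the 4D9 mouse of pool 4 (2.53, adjusted p = 0.0371, edgeR). On leaving out each mouse in turn, Gm42031 ran from 0.10 to 2.53 and Gm43305 from 0.32 to 2.10 there. In cluster 0, Gm42031 had 2.81 ± 0.84 (adjusted p = 0.146) and Gm43305 2.14 ± 0.53 (adjusted p = 0.0572). With the block both passed in cluster 0 (2.47, adjusted p = 0.0107, and 1.93, adjusted p = 0.00099, edgeR). Gm43305 also passed in cluster 0 without the ATV:4D9 mouse of pool 3 (2.32, adjusted p = 0.0402) or the ATV:ISO mouse of pool 4 (2.70, adjusted p = 0.0107). On leaving out each mouse in turn, Gm43305 ran from 1.58 to 2.70 and Gm42031 from 1.54 to 3.55 in cluster 0.

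The ATV:4D9 mouse of pool 3, with the lowest levels of both RNAs in its group, decided other calls too. In cluster 2, Gm42031 had 1.84 (adjusted p = 0.182) with this mouse and 2.19 (0.0294) without it, and Gm43305 1.91 (0.0806) and 2.27 (0.00566), or 2.18 (0.0353) without the ATV:4D9 mouse of pool 2. Leaving out other mice took Gm42031 as low as 0.98 and Gm43305 as low as 1.22 in cluster 2, without a call. In cluster 4 they went from 2.00 (0.156) to 2.30 (0.0305) and from 1.66 (0.18) to 2.01 (0.0481). Other mice moved the cluster 4 values further without a call, Gm42031 from 1.22 (without the ATV:4D9 mouse of pool 4) to 3.77 (without the ATV:ISO mouse of pool 4) and Gm43305 from 0.87 to 3.53 without the same mice. In cluster 5, Gm42031 had 2.23 (adjusted p = 0.0641), and 2.60 (0.00296) without the ATV:4D9 mouse of pool 3 or 2.47 (0.0347) without that of pool 2, all by edgeR. Its lowest value there on leaving out a mouse was 1.45.

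The same exchange of each cluster's share of all UMIs was made between the antibodies in AppSAA mice. At the shares of the ATV:4D9 group and the cluster levels of the ATV:ISO group, Mamdc2 would stand at 9.42 CPM (observed 6.60 with ATV:4D9). Hpse would stand at 14.99 (8.03), Etl4 at 25.6 (11.8) and Baiap2l2 at 43.4 CPM (13.8). With the levels of the ATV:4D9 group and the shares of the ATV:ISO group, Mamdc2 would stand at 25.9 CPM (observed 23.8 with ATV:ISO), Hpse at 24.9 (19.7), Etl4 at 22.2 (26.6) and Baiap2l2 at 43.1 CPM (65.2). The shares alone thus moved Etl4 from 26.6 to 25.6 CPM with ATV:ISO levels and from 11.8 to 22.2 CPM with ATV:4D9 levels, so the part set by the shares depends on the direction of the exchange.

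**Figure D4:**
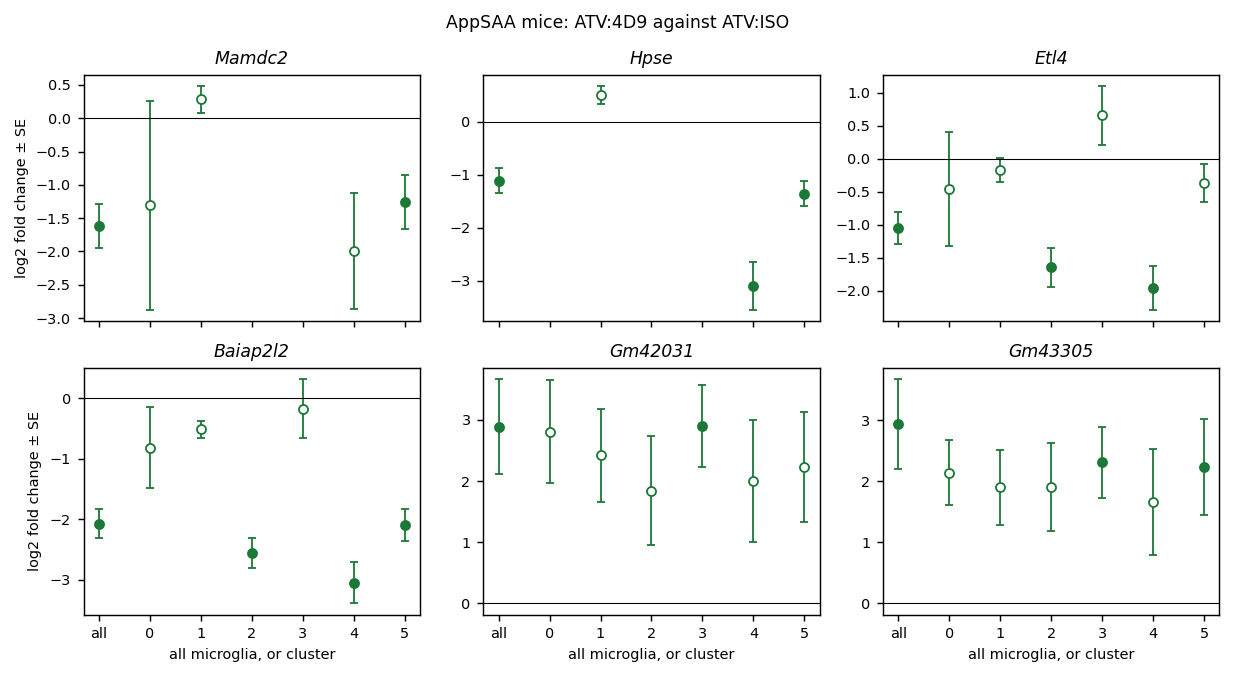
Log2 fold change of each member between ATV:4D9 and ATV:ISO in AppSAA mice (points, with SE), over all microglia and within clusters 0 to 5, with filled points at an edgeR adjusted p under 0.05 and no point where a gene did not pass the filter on low counts. Baiap2l2 falls over all microglia (-2.07) and in clusters 2, 4 and 5, and is near -0.5 in cluster 1, where Hpse and Mamdc2 lie above 0.

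In WT mice the Etl4 rise was not called within clusters. Clusters 0, 2 and 3 had enough cells in both WT groups, and 0 members were called there by edgeR or DESeq2 (0 at an unadjusted p under 0.05), against 1.47%, 5.88% and 6.17% of genes. Etl4 had -1.18 ± 1.07 in cluster 0, -0.003 ± 0.83 in cluster 2 and 1.01 ± 0.55 in cluster 3 (adjusted p = 0.313), and with ATV:4D9 stood at 3.81 ± 1.58 CPM in cluster 2 and 4.06 ± 1.38 CPM in cluster 4. Only 2 Etl4 UMIs were counted in cluster 0 with ATV:4D9 and 7 in cluster 2 with ATV:ISO, over 4 mice each. Cluster 4, with 46.7% ± 4.9 of the Etl4 UMIs under ATV:4D9, had too few ATV:ISO cells for a test. A rise of Etl4 within clusters could thus be missed. In WT mice given ATV:ISO, most cells were in clusters 0 and 3, where Etl4 was at 1.20 ± 0.247 and 1.19 ± 0.288 CPM (SD, n = 4).

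In WT mice both RNAs had a higher mean in cluster 3 than in cluster 0 with ATV:ISO, and in cluster 4 than in cluster 2 with ATV:4D9. With ATV:ISO, Gm43305 was at 71.2 ± 21.3 CPM (SD, n = 4) in cluster 3 (50.1 to 97.4) and 27.2 ± 7.76 in cluster 0 (19.1 to 35.5), without overlap, and cluster 3 supplied 58.9% ± 5.0 of its UMIs from 35.8% of cells. With ATV:4D9 it was at 155 ± 48.0 CPM in cluster 4 (120 to 223) and 67.9 ± 23.5 in cluster 2 (40.5 to 93.6), again without overlap, and cluster 4 supplied 64.3% ± 5.2 of its UMIs from 39.95% of cells. Gm42031 had 58.99% ± 5.7 of its UMIs in cluster 3 with ATV:ISO and 57.1% ± 4.2 in cluster 4 with ATV:4D9. Its levels overlapped between the clusters. With ATV:ISO it ran from 16.5 to 30.7 CPM in cluster 3 and from 6.22 to 18.3 CPM in cluster 0. With ATV:4D9 it ran from 16.7 to 45.1 CPM in cluster 4 and from 8.52 to 26.5 CPM in cluster 2.

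The AppSAA mice given ATV:4D9 differed widely in Gm42031 and Gm43305 within clusters as well. Over the 6 clusters, Gm43305 ranged from 38.7 to 246 CPM in the AppSAA mouse of pool 4 given ATV:4D9 and from 25.0 to 140 CPM in that of pool 1. In the mice of pools 2 and 3 it ranged from 8.27 to 29.7 CPM and from 2.00 to 6.45 CPM. The lowest of these mice therefore had less Gm43305 in its highest cluster than the other 3 had in their lowest. Gm42031 ranged from 15.4 to 51.7 CPM and from 0 to 24.0 CPM in pools 4 and 1, and from 2.36 to 10.7 and 0 to 1.86 CPM in pools 2 and 3. In cluster 0 the order differed, since the mouse of pool 1 held 0 UMIs of Gm42031 in 42 cells and that of pool 2 stood at 7.69 CPM.

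Both RNAs rest on near-identical gene copies, so their separate levels are uncertain. Only annotated transcripts were compared and no repeat annotation was used here, so how much of either count came from further copies of these sequences in the genome was not tested. An annotated transcript of Gm42031 (1885 bases) and one of Gm43305 (4901 bases) align at 98.7% identity over 748 bases that reach the last base of the Gm43305 transcript. Their RefSeq start windows differ at 6 of 300 positions (98% identical), by the substitutions A27G, A69G, G142A, A154C, C298A and A300C, counted from 1 at the 5′ end with the Gm42031 base first. Outside these 2, transcripts of 4 annotated genes matched either RNA at 95% identity or more over at least 300 bases, and 2 of them were counted here. AI506816 differed between AppSAA and WT mice under ATV:ISO by 0.61 (adjusted p = 3.88e-05) and Chd9 by -0.60 (log2 fold changes, adjusted p = 7.41e-05, edgeR). Between ATV:4D9 and ATV:ISO in AppSAA mice they differed by 1.80 (adjusted p = 2.35e-12) and -0.42 (adjusted p = 0.000959).

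**Figure D5:**
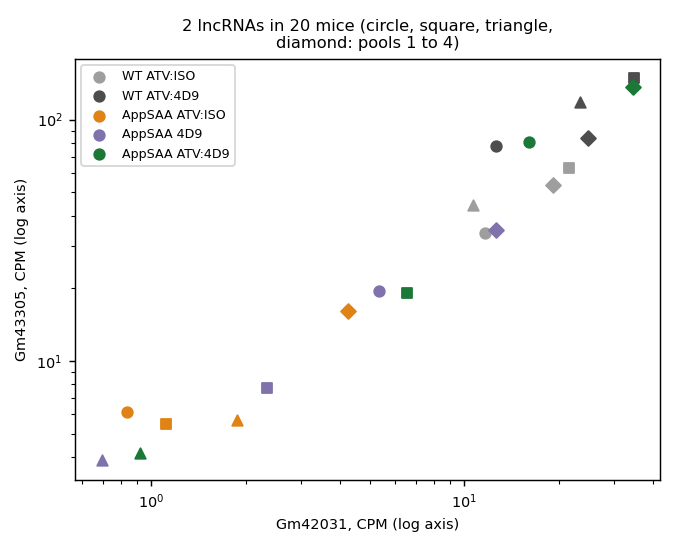
Level of Gm43305 (vertical) against Gm42031 (horizontal) in each of the 20 mice, in CPM on log axes, coloured by genotype and antibody, with the symbol giving the pool. The 2 RNAs are high and low in the same mice. The ATV:4D9 mice of the AppSAA genotype are spread over nearly the whole range, from 4.16 to 137 CPM of Gm43305.

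Over the 20 mice, the genes whose log2 CPM followed each member most closely (Pearson's r, ranked among 8028 genes with a mean of at least 10 CPM) were as follows. All values share the same libraries and the genotype difference, and are a description. Mamdc2 was closest to Igf1, a growth factor (r = 0.993), Fabp5, a fatty acid binding protein (0.991), and Gpnmb, a membrane glycoprotein (0.990). Hpse was closest to Igf1 (0.985), Mamdc2 (0.984) and Wfdc17 (0.983). Etl4 followed Acaca, the acetyl-CoA carboxylase of fatty acid synthesis (0.997), Itgax, the integrin chain CD11c (0.993), and Myo5a, a myosin that carries vesicles (0.989). Baiap2l2 followed Aplp2, a relative of App (0.992), and Ank, a pyrophosphate transporter (0.984). Gm42031 and Gm43305 were each other's closest match (0.976), and next came St3gal5, the GM3 ganglioside synthase, at 0.791 and 0.847, then Topors (0.774) for Gm42031 and Ints3 (0.8285) for Gm43305.

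Among the tested genes next to each member on the chromosome, Slc16a8 had the largest differences in AppSAA mice. It is a lactate transporter gene on the same strand, 3434 bases beyond the 3′ end of Baiap2l2, with a log2 difference of 3.89 between AppSAA and WT mice under ATV:ISO (adjusted p = 1.5e-09) and of -2.18 between ATV:4D9 and ATV:ISO in AppSAA mice (adjusted p = 1.38e-08, edgeR). In WT mice it was higher with ATV:4D9 (0.88, adjusted p = 0.0386, edgeR), where Baiap2l2 differed by 0.11 ± 0.28. On the other side of Baiap2l2, Pla2g6 had 0.72 and -0.20 in the same comparisons. Next to Etl4, Otud1 had 0.91 and -1.004 and Arhgap21 had 0.01 and 0.24. The neighbours of Mamdc2 (Smc5 and Ptar1) had 0.10 and -0.20 between genotypes, those of Hpse (Coq2 and Helq) 0.12 and 0.10. Those of Gm42031 (Zfp791 and Vps35) had -0.31 and -0.01, and those of Gm43305 (Abhd4 and 5330426L24Rik) 0.09 and -0.38. Between ATV:4D9 and ATV:ISO in AppSAA mice Smc5 and Ptar1 had 0.68 and -0.08, and Coq2 and Helq 0.72 and 0.87. Zfp791 and Vps35 had -0.53 and 0.17, and Abhd4 and 5330426L24Rik -0.45 and -0.22. Ptar1, 5330426L24Rik, Pla2g6 (adjusted p = 0.113) and Arhgap21 (adjusted p = 0.0596, edgeR) were not called in that comparison. The other neighbours named were called, where 55.1% of all genes were called.

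Genes related to the members by pathway or domain were called in both directions. Of 34 other genes of heparan sulfate synthesis, modification and turnover, 25 were tested, and between AppSAA and WT mice under ATV:ISO 5 were higher and 5 lower (median log2 difference -0.08, against -0.06 over all genes tested, with 28.2% of genes called). In AppSAA mice ATV:4D9 against ATV:ISO had 5 higher and 10 lower (median -0.02, against -0.03, with 55.1% of genes called). Gusb, the lysosomal glucuronidase, was at 374 ± 18.3 CPM in AppSAA and 202 ± 6.23 CPM in WT mice under ATV:ISO (log2 difference 1.08 ± 0.08, adjusted p = 2.08e-09) and at 381 ± 6.59 CPM in AppSAA mice given ATV:4D9 (0.10 ± 0.08, adjusted p = 0.293). Naglu, a lysosomal glucosaminidase, was higher in AppSAA mice (0.77 ± 0.07, adjusted p = 7.43e-08, edgeR).

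Of 13 heparan sulfate proteoglycans, the substrates of heparanase, 5 were tested, with 2 higher and 1 lower in AppSAA mice under ATV:ISO (median 0.41, against -0.06 over all genes tested, of which 28.2% were called). Sdc3, a syndecan, differed by 1.07 ± 0.14 (adjusted p = 9.03e-06) and Sdc4 by 0.41 ± 0.20 (adjusted p = 0.125), and the glypican Gpc2 fell by 0.38 on the log2 scale (adjusted p = 0.00803). In AppSAA mice Sdc3 was higher still with ATV:4D9, from 61.9 ± 8.93 to 155 ± 22.9 CPM (1.40 ± 0.14, adjusted p = 7.04e-08, edgeR), while Hpse was lower. Sdc3 was also higher with ATV:4D9 in WT mice (1.65 ± 0.14, adjusted p = 5.12e-09, edgeR), where Hpse differed by -0.47 ± 0.39. A link between Sdc3 and Hpse was not tested. With ATV:4D9 in AppSAA mice, 3 of the 5 were higher and 1 lower (median 0.43, against -0.03, with 55.1% of genes called).

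All 4 other I-BAR family genes counted were tested. Between genotypes under ATV:ISO 1 was higher and 1 lower in AppSAA mice (median -0.27, with 28.2% of all genes called). With ATV:4D9 in AppSAA mice 2 were lower (median -0.46, with 55.1% of all genes called). Mtss1 went against Baiap2l2 between genotypes, at 58.8 ± 4.72 CPM in WT and 27.1 ± 2.98 CPM in AppSAA mice (log2 difference -0.93 ± 0.12, adjusted p = 3.99e-06, edgeR), and fell with ATV:4D9 in AppSAA mice (-1.09 ± 0.12, adjusted p = 1.81e-07). Mtss1 also fell with ATV:4D9 in WT mice (-1.52 ± 0.12, adjusted p = 8.63e-10, edgeR), where Baiap2l2 differed by 0.11 ± 0.28. Baiap2l1 was higher in AppSAA mice (2.19 ± 0.43, adjusted p = 0.000615) at a level under 1 CPM, and Baiap2, the founding member, differed by 0.17 ± 0.10 (adjusted p = 0.244).

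Of 16 other MAM domain genes, 7 were tested, with 3 higher in AppSAA mice under ATV:ISO (median 0.31, with 28.2% of all genes called). These were Nrp1 and Nrp2, the neuropilin co-receptors (0.79 ± 0.07, adjusted p = 2.38e-08, and 0.47 ± 0.09, adjusted p = 0.000417), and Npnt, a matrix protein (0.31 ± 0.09, adjusted p = 0.0154, edgeR). With ATV:4D9 in AppSAA mice 2 were higher and 2 lower (median -0.11, with 55.1% of all genes called), among them Nrp2 (0.61 ± 0.09) and Nrp1 (-0.31 ± 0.07). Srcin1, the relative of Etl4, was under 1 CPM and differed by -0.05 ± 0.39 between genotypes.

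Some measures moved with the groups beside the members. The summed level of astrocyte markers was 137 to 166 CPM in WT mice given ATV:ISO and 62.3 to 113 CPM elsewhere, and that of endothelial markers was 37.8 to 53.0 CPM in AppSAA mice given ATV:ISO or 4D9 and 9.57 to 26.4 CPM in the other groups. Monocyte markers summed to 9.998 to 13.7 CPM in AppSAA mice given ATV:4D9 and 4.09 to 10.3 CPM in the other groups. Oligodendrocyte markers summed to 58.6 to 73.5 CPM in WT mice given ATV:ISO and 34.5 to 47.9 CPM in those given ATV:4D9. Over all groups they summed to 33.6 to 73.5 CPM. Neuron markers summed to 4.198 to 4.84 CPM in WT and 1.67 to 2.34 CPM in AppSAA mice given ATV:ISO. Microglial markers summed to 23699.6 to 24813.8 CPM in WT mice given ATV:ISO and 12695.7 to 14341.4 CPM in AppSAA mice given ATV:4D9. Over all groups those of border macrophages summed to 11.9 to 39.2 CPM and of neutrophils to 4.37 to 23.3 CPM. In the astrocyte and endothelial lists some markers were under 1 CPM (4 of 6 astrocyte and 3 of 5 endothelial markers in every group). The part of any of these marker shifts in the levels of the members was not tested. UMIs per cell were higher under ATV:4D9 in both genotypes, and a level in CPM is relative to the other RNA of the cell. Over all microglia, a smaller cluster and less RNA of a gene per cell cannot be told apart, and the values within clusters are those given above.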

How the data were processed

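Single-cell RNA-seq of CD11b+ brain cells from 20 mice was analysed. The authors aligned the reads to mm10 (Cell Ranger 6.1.1 in the submitters' processing notes), used CellPlex tags to tell the mice apart, and ran integration and clustering in Seurat. The deposited matrix holds raw UMI counts. The annotation deposited with it gives each cell's mouse, group, pool, sex, dose and cluster, and the percent of its UMIs on mitochondrial genes, which the authors computed and which was not used here. Whether doublets or cells were removed before deposit is not given in the sources used here, so every deposited cell was kept and no doublet caller was run. Members and gene lists were chosen with earlier results of these data known.

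Counts were added up within each mouse, and within each cluster of a mouse if it had 20 cells or more. CPM are UMIs per 1000000 of that sum. Tests used edgeR 4.0.16 in R 4.3.3 (filterByExpr, TMM, quasi-likelihood test, all 5 groups in a single fit, Benjamini-Hochberg over all genes tested, called at 0.05). A step on simulated counts tested the fit. Alternatives were limma-voom (limma 3.58.1), DESeq2 1.42.0, size factors, no filter, a cell minimum of 50, cells with 1000 to 25000 UMIs, the pool as a block, and each mouse left out. The labels state that a pool contains a mouse from each condition, which pairs the mice by pool. Deviations from the group means correlated in all 40 pairs of groups and pools compared (0.143 to 0.607). Like genes were ranked by Pearson's r of log2 CPM (prior count 2). Transcripts were compared with blastn 2.17.0. Named genes were the 6 members, their 3 closest genes, the nearest tested gene on each side and the 3 most abundant genes of each list; AI506816 and Chd9 were named after the copies were counted. Some genes that this rule names are not reported here. Depth ranged from 17150296 to 102446549 UMIs per mouse. Sequences are from RefSeq (GRCm38.p6) and gene positions from GENCODE vM21.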

Additional observations from a re-analysis of the deposited data

Results flagged for a closer look

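In AppSAA mice given ATV:ISO, 3 values stood apart from the other 3 mice of the group by Dixon's gap. Gm43305 was highest in the pool 4 mouse, at 16.13 CPM over all microglia and at 9.889 CPM within cluster 1. Etl4 within cluster 1 was lowest in the pool 1 mouse, at 31.04 CPM. Such gaps were looked for in 48 groups of 4 mice, and chance gives about 1 in 20.

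The effect of ATV:4D9 on Etl4 went in opposite directions in the genotypes, higher in 4 of 4 pools in WT mice and lower in 4 of 4 pools in AppSAA mice. The difference of the effects was -2.465 on the log2 scale. This difference was not tested, because it contains the genotype difference on which Etl4 was chosen. The WT levels were low (1.05 to 5.58 CPM), and the part of RNA free in the pools in them was not tested.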

How the results depend on the processing

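Sums of cluster 4 in AppSAA mice given ATV:ISO came from as few as 27 cells. The filter on low counts left 5 members in cluster 0, 4 in clusters 2 and 3, and all 6 in clusters 1, 4 and 5 of AppSAA mice. Of the member values recomputed, 1119 kept their direction and their side of the threshold, 34 passed it, 28 lost it, and 30 changed sign without being called in either fit. Gm42031 and Gm43305 share near-identical sequence, and their split is uncertain. Thinning moved 22 of 30 shares of cells by more than 1 SD. Weighting each cell equally moved 6 group levels of the members by more than 1 SD, and 24 by less.

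With the pool as replicate block, genes called went from 3960 to 7166 between AppSAA and WT mice under ATV:ISO. Within clusters they went, for ATV:4D9 against ATV:ISO in WT mice, from 172 to 1048 (cluster 0), 566 to 1056 (cluster 2) and 717 to 2040 (cluster 3). In AppSAA mice they went from 78 to 616 (cluster 0), 184 to 947 (cluster 1), 1269 to 2390 (cluster 2) and 504 to 1461 (cluster 3), and against 4D9 from 214 to 820 (cluster 1), 1288 to 2224 (cluster 2) and 409 to 1299 (cluster 3). Members called with the block went from 1 to 2 in WT mice over all microglia, from 0 to 2 in cluster 0 and 0 to 4 in cluster 1 of AppSAA mice, and against 4D9 from 1 to 2 in cluster 1 and 0 to 2 in cluster 3. The share of all genes called with the block in WT mice over all microglia is not given here. That count of members is therefore not read against a background.

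With DESeq2, genes called were 1 for 4D9 against ATV:ISO, 333 in WT and 194 in AppSAA mice in cluster 0, and 353 against ATV:ISO and 331 against 4D9 in cluster 1. Members called were 1 in cluster 0 and 1 in cluster 3. Without a filter, members called in AppSAA mice were 2 in cluster 0, 1 in cluster 1, 6 in cluster 2 and, against 4D9, 4 in cluster 5. With sums of at least 50 cells, 4 were called in cluster 2. The share of all genes called without a filter or with at least 50 cells is not given here. These counts of members are therefore not read against a background. The cause of these differences was not tested. In WT mice in cluster 2, Etl4 changed sign without a filter (log2 fold change 0.065) and with the block (0.019).

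Leaving out each mouse in turn, genes called in WT mice ranged from 72 to 201 (cluster 0), 341 to 584 (cluster 2) and 468 to 805 (cluster 3). In AppSAA mice they ranged from 19 to 79 (cluster 0), 124 to 190 (cluster 1), 628 to 1352 (cluster 2), 311 to 472 (cluster 3), 1961 to 2549 (cluster 4) and 1697 to 2851 (cluster 5). Against 4D9 they ranged from 131 to 174 (cluster 1), 799 to 1345 (cluster 2), 204 to 438 (cluster 3) and 989 to 1626 (cluster 5). The fewest in cluster 0 (19) were called without the ATV:4D9 mouse of pool 4. Members called against ATV:ISO ranged from 0 to 1 in clusters 0 and 1, 2 to 4 in cluster 2, 0 to 2 in cluster 3, 3 to 5 in cluster 4 and 2 to 5 in cluster 5, and against 4D9 from 0 to 1 in clusters 1 and 3 and 1 to 2 in cluster 5.

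On leaving out mice, values also changed sign. In WT mice the ranges were -0.063 to 0.29 for Baiap2l2 over all microglia, -0.12 to 0.65 for Gm42031 in cluster 0, -0.69 to 0.59 for Baiap2l2, -0.42 to 0.20 for Etl4 and -0.13 to 0.29 for Gm43305 in cluster 2, and -0.30 to 0.51 for Baiap2l2 in cluster 3. In AppSAA mice they were -0.17 to 0.070 for Hpse and -0.23 to 0.044 for Etl4 (4D9 against ATV:ISO), -0.11 to 0.25 for Mamdc2 and -0.21 to 0.042 for Etl4 (cluster 1 against 4D9), -0.40 to 1.39 for Gm42031 and -0.40 to 1.27 for Gm43305 (cluster 4 against 4D9), -0.52 to 0.063 for Hpse (cluster 5 against 4D9), and -0.38 to 0.0029 for Baiap2l2 (cluster 3).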
